A study of Arabidopsis thaliana with 19 samples.

Results

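Of the 22150 H3K4me3 peaks called in Arabidopsis thaliana sperm chromatin, 6219 (28.1%) lay on the chromosome arms and shared no base with an H3K27ac peak or with a broad H3K27me3 peak. These peaks without H3K27ac are described here. They were chosen from the narrow H3K4me3 and H3K27ac lists and the broad H3K27me3 list, so their H3K4me3 fold, their width and their distances to both H3K27 marks describe the choice and were not tested. A further 14349 arm peaks touched H3K27ac and not H3K27me3, where touching means sharing at least 1 base, and these peaks with H3K27ac are the comparison throughout. The remaining arm peaks touched H3K27me3 alone (280) or both H3K27 marks (568), and 734 peaks were pericentromeric and were left out.

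H3K4me3 is a methyl mark found near the start of transcribed genes, and H3K27ac is an acetyl mark of active promoters. One lysine 27 cannot be acetylated and methylated at once. Its trimethyl form is the product of Polycomb repressive complex 2, while in plants its monomethyl form is best known from heterochromatin, where the methyltransferases ATXR5 and ATXR6 deposit it. Sperm are the male germ cells carried in pollen, with condensed chromatin that holds the H3 variant H3.10.

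All samples were sperm nuclei of the ecotype Col-0, wild type in genotype, sorted by fluorescence from a line in which the HTR10 promoter drives the H3.10 histone HTR10 with a Clover fluorescent tag. Chromatin was cut to mononucleosomes with micrococcal nuclease and sequenced as 50 bp paired-end Illumina reads. H3K4me3 and H3K27ac had 3 immunoprecipitations each, from input preparations 1, 2 and 3 of the first input set, H3K27me1 had 2 (preparations 1 and 3) and H3K27me3 had 2 (preparations 2 and 3). The 3 immunoprecipitations of H3.10, with the second set of 3 inputs, complete the 19 samples and were not analysed here. Each deposited list was made for a mark as a whole and not per sample. The spread between replicates is therefore unknown, as is the depth of the libraries, and no test across samples was possible. Intervals below are exact 95% binomial (Clopper-Pearson) intervals that cover the counting of peaks or genes only, and neighbouring peaks are not independent of each other.

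The labelled cell type was checked on the marked genes. All 10 male germline markers (DUO1, DAZ1, DAZ2, HAP2, GEX2, HTR10, DMP8, DMP9, TET11 and TET12) carried H3K4me3 together with H3K27ac, and none of them lay in the class without H3K27ac. HTR10 is also the tagged gene of the sorted line, so it is not independent of the sort. Of 9 markers of the pollen vegetative cell, the companion cell of sperm, 4 carried both marks (VGD1, ANX1, CNGC18 and CSLD4), 1 carried H3K4me3 with no H3K27ac (MYB97), 1 was in another H3K4me3 class (ANX2) and 3 had no H3K4me3 (PPME1, CPK34 and AHA6). Of 4 leaf markers, LHCB1.1, LHCB2.1 and RCA carried H3K4me3 with no H3K27ac, and RBCS1A carried no H3K4me3. In the longer lists, 14 of 24 pollen tube and vegetative cell genes and 6 of 24 photosynthesis genes carried both marks. Over all protein-coding genes, 50.7% carried H3K4me3 with H3K27ac, 17.5% were in the class without H3K27ac and 24.8% had no H3K4me3. Here and below, protein-coding genes counted with both marks leave out those under a peak without H3K27ac that had H3K27ac elsewhere on their span. Such genes were another 3.33%. The share of other nuclei in the sort was not measured here, and its part in these peaks was not tested.

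Peaks without H3K27ac were lower and narrower than peaks with H3K27ac. Their fold, the authors' ratio of H3K4me3 signal over the local background expected by the peak caller, had a median of 2.68 (quartiles 2.08 and 3.47, range 1.33 to 7.56), against 4.26 (3.14 and 5.23) in peaks with H3K27ac and 3.70 over all H3K4me3 peaks. The median significance, as −log10 of the q value, was 29.3 without H3K27ac, 88.2 with H3K27ac and 65.3 over all peaks. The median width was 674 bp (quartiles 509 and 904 bp), against 901 bp with H3K27ac and 841 bp over all peaks. Together the peaks without H3K27ac covered 4.74 Mb, or 21.8% of the bases under H3K4me3, against 15.4 Mb (70.5%) for those with H3K27ac.

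The share of arm peaks without H3K27ac fell at every step of H3K4me3 fold. With the arm peaks cut by fold into 10 bins of near-equal size, it was 60.4% (58.3 to 62.5%) in the lowest bin, 31.3% in bin 5 and 1.64% (1.14 to 2.27%) in the highest bin, where 35 of 2139 peaks had neither H3K27 mark. Width ran the same way less evenly over 10 bins, with 63.0% in the narrowest, 19.3% in bin 6, 22.9% in bin 8 and 7.34% in the widest. The share moved with either measure when the other was held within 1 of 4 bins. It was 60.6% of the 3268 peaks in the lowest bin of both, 34.3% of the lowest but widest, 10.2% of the highest but narrowest and 3.44% of the 1916 peaks in the highest bin of both. H3K27ac itself was called nearer to its limit at low H3K4me3 peaks. The median −log10 q of the H3K27ac peaks touched was 4.79 in the lowest of the 10 fold bins and 12.6 in the highest. Of the touched peaks, 53.4% in the lowest bin and 4.34% in the highest had an H3K27ac −log10 q under 5. How many peaks without H3K27ac carry acetylation below the calling limit was not tested.

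**Figure D1:**
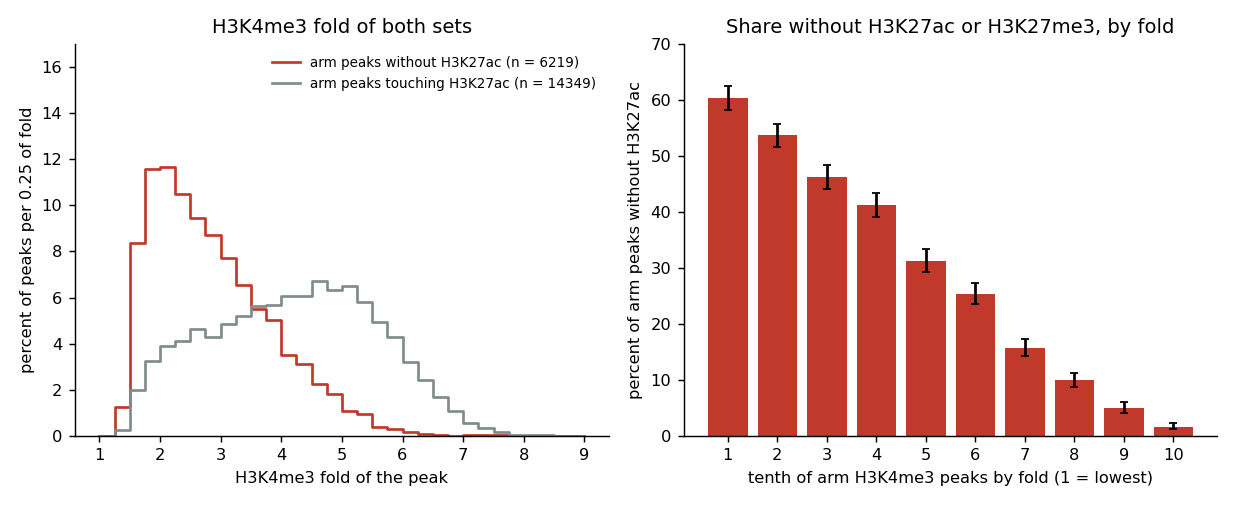
Left, histogram of the authors' H3K4me3 fold for arm peaks without H3K27ac (red, n = 6219) and with H3K27ac (grey, n = 14349), in percent of each set per 0.25 of fold. Right, percent of arm H3K4me3 peaks without H3K27ac or H3K27me3 in each of 10 fold bins, with exact 95% binomial intervals; the bars run from 60.4% in the lowest bin to 1.64% in the highest.

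In distance, the choice left few peaks close to its edge. In H3K27ac significance it left many. When only H3K27ac peaks with a −log10 q of 5 or more counted, 9043 peaks were without H3K27ac, against 6219. The nearest H3K27ac peak lay at a median of 2094 bp (quartiles 1106 and 3725.5 bp) from a peak without H3K27ac. In 27 of them it lay within 200 bp, in 327 within 500 bp, and 896 had none within 5000 bp. The peak just inside, chr5:3772830-3773668 (TAIR10, as are all coordinates here), had a fold of 5.06 and an H3K27ac peak 28 bp away, and the next, chr1:2722653-2723198, had a fold of 3.65 and a gap of 39 bp. Just outside, chr1:28142172-28142753 shared 7 bp with H3K27ac at a fold of 2.29, and chr5:18291767-18292200 shared 12 bp at a fold of 1.45. Peaks with H3K27ac shared a median of 553 bp with it, and 14 shared under 50 bp. No peak without H3K27ac touched a narrow H3K27me3 peak, and 24 lay within 500 bp of a broad one. The broad H3K27ac list, which the choice did not use, touched 37 of them (0.595%), against 47 of the peaks with H3K27ac (0.328%) and 0.424% of all H3K4me3 peaks. The broad H3K4me3 list touched 4518 of them (72.6%), against 10971 (76.5%) with H3K27ac and 75.1% of all.

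The peaks without H3K27ac were spread over all chromosome arms. They made up 28.9% of the arm H3K4me3 peaks of chromosome 1, 27.9% of chromosome 2, 28.1% of chromosome 3, 31.6% (30.04 to 33.3%) of chromosome 4 and 29.0% of chromosome 5. Over 100 windows of 1 Mb the share had a median of 28.9% and a range of 15.3 to 44.4%. The highest window, chr4:12000001-13000000, held 103 of them among 232 arm peaks, and the lowest, chr1:30000001-31000000, held 17 of 111. Read along the arms they fell into 4203 runs with no other H3K4me3 peak between, of which 2878 were single peaks, while 1585 peaks stood in runs of 3 or more. The longest runs held 8 peaks each. One spanned 23.5 kb at chr3:16197754-16221228, with folds of 1.82 to 3.47. The other spanned 24.8 kb at chr5:22941670-22966451, with folds of 2.06 to 4.71, and put 7 of its 9 protein-coding genes under such peaks. Among those 7, named after their values were seen, are HAG2, a histone acetyltransferase gene, and SERAT1;1, a serine acetyltransferase gene. A run of 7 peaks at chr1:8584934-8607485 includes the floral MADS-box gene SEP3.

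Peaks without H3K27ac lay at genes nearly as often as peaks with it. Their summits were less often within 500 bp of a gene end, a difference that was not seen at 250 bp. The gene table has no strand, so a gene's start cannot be told from its end, and near a gene end means within 500 bp of either. The summit lay near a gene end in 4010 peaks without H3K27ac (64.5%, 63.3 to 65.7%), against 10458 (72.9%, 72.1 to 73.6%) with H3K27ac and 69.4% of all H3K4me3 peaks. It lay in a gene interior in 1747 (28.1%, 26.98 to 29.2%), against 2841 (19.8%, 19.1 to 20.5%) with H3K27ac and 22.8% of all. The contrast depends on the distance. With 250 bp, 19.6% (18.6 to 20.6%) without and 19.0% (18.4 to 19.7%) with H3K27ac lay near a gene end, and 71.5% (70.4 to 72.6%) without and 72.5% (71.7 to 73.2%) with H3K27ac lay inside, so the order turned and the intervals overlapped. The other classes took small shares of both sets: pseudogenes or transposon genes 1.54% (1.25 to 1.88%) against 1.07% (0.905 to 1.25%), RNA genes 1.33% against 1.58%, and 4.55% against 4.67% fell on no annotated gene. The median distance from summit to the nearest gene end was 394 bp without H3K27ac and 355 bp with it. Within the set, interior peaks were wider and lower (median 808 bp, fold 2.51) than peaks near a gene end (654 bp, fold 2.81), and those on no annotated gene were the lowest (512 bp, fold 2.09).

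The place of the peaks moved with H3K4me3 fold, and the direction of the difference at gene ends turned with it. Arm peaks were cut by fold into 4 bins, with limits at 2.60, 3.70 and 4.88. In bin 1, the lowest, 56.7% of peaks without H3K27ac and 49.7% of peaks with H3K27ac lay near a gene end, and in bin 2 the shares were 72.2% without and 67.1% with H3K27ac. In bin 3 they were 70.9% without and 79.1% with H3K27ac, and in bin 4 they were 67.8% and 81.8%. The intervals did not overlap in any of these 4 bins. Interior summits made up 31.9% without against 28.6% with H3K27ac in bin 1 and 23.0% against 23.7% in bin 2, and in both bins the intervals overlapped. They made up 26.4% without against 16.8% with H3K27ac in bin 3, and 31.8% (25.9 to 38.1%, n = 239) against 15.8% (14.8 to 16.9%, n = 4849) in bin 4. In bins 3 and 4 the intervals for gene interiors did not overlap.

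H3K27me1, which the choice did not use, touched more of the peaks without H3K27ac. In the narrow H3K27me1 list, 1563 of them (25.1%, 24.1 to 26.2%) touched a peak, against 2156 (15.0%, 14.4 to 15.6%) of the peaks with H3K27ac and 18.6% of all H3K4me3 peaks. In the broad list the numbers were 553 (8.89%, 8.20 to 9.63%), against 784 (5.46%, 5.10 to 5.85%) with H3K27ac and 6.59% of all. Narrow H3K27me1 covered the summit of 20.9% of the peaks without H3K27ac and 20.04% of their bases, against 10.9% of summits and 9.72% of bases with H3K27ac. All H3K27me1 values come from 2 immunoprecipitations that share input preparations with those of H3K4me3 and H3K27ac.

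The difference in narrow H3K27me1 was seen both at gene ends and inside genes. At gene ends 19.9% (18.7 to 21.2%) without H3K27ac touched it, against 11.9% (11.3 to 12.6%) with H3K27ac. In gene interiors 39.8% (37.5 to 42.2%) did, against 28.1% (26.5 to 29.8%). On pseudogenes or transposon genes the shares were 45.8% and 36.6% with overlapping intervals, and on RNA genes (9.64% and 10.6%) and outside genes (6.01% and 4.33%) the intervals overlapped too. Within the 4 fold bins the difference was smaller. The share was 28.1% (26.5 to 29.8%) without against 23.7% (21.99 to 25.6%) with H3K27ac in bin 1 and 21.3% (18.8 to 24.0%) against 13.6% (12.5 to 14.6%) in bin 3. The intervals overlapped in bin 2, with 24.7% without and 23.6% with H3K27ac, and in bin 4, with 7.95% and 6.85%. For the broad list the intervals overlapped in all 4 bins, with 9.98% against 8.68% in bin 1, 8.87% against 8.43% in bin 2, 6.83% against 4.78% in bin 3 and 4.18% against 2.68% in bin 4. Peaks without H3K27ac that touched narrow H3K27me1 had a median fold of 2.54 and a width of 807 bp, and those that did not had 2.72 and 647 bp. A wider peak has more bases with which to touch another, and the part of width in these shares was not tested.

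**Figure D2:**
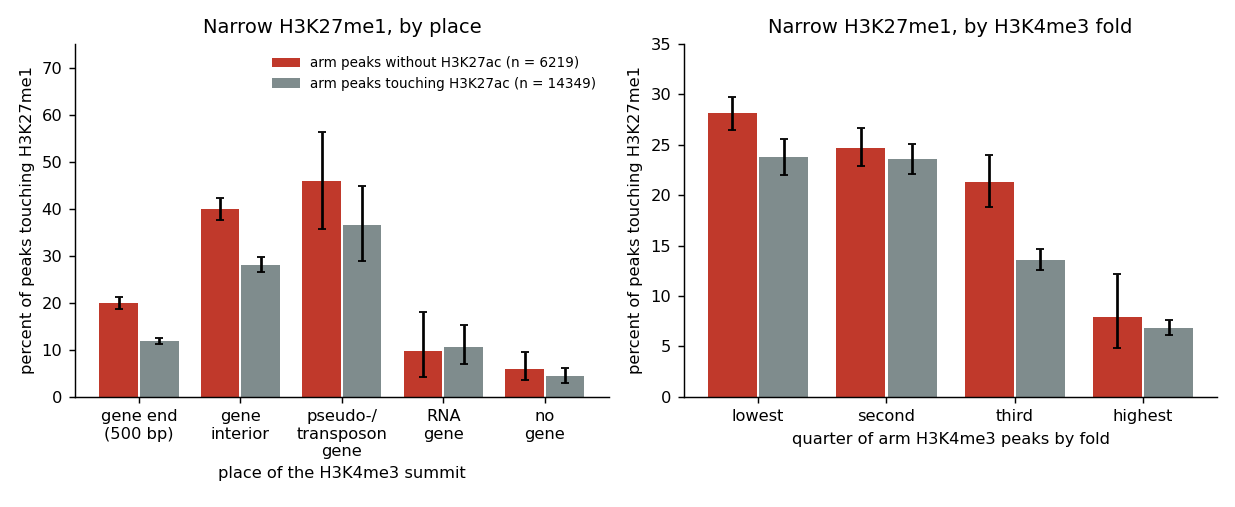
Percent of arm H3K4me3 peaks that touch a narrow H3K27me1 peak, without H3K27ac (red) and with H3K27ac (grey), by place of the summit (left) and by H3K4me3 fold in 4 bins (right). Bars are shares with exact 95% binomial intervals; red exceeds grey at gene ends (19.9% against 11.9%) and in gene interiors (39.8% against 28.1%), while in bins 2 and 4 of fold the intervals overlap.

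Around peaks without H3K27ac, both H3K27me1 lists covered more summits than positions 500 or 3000 bp away. Narrow H3K27me1 covered 20.9% of summits without H3K27ac and 10.9% and 10.6% of positions 500 bp to either side. With H3K27ac it covered 10.9% of summits and 5.59% and 5.41% at 500 bp. At 3000 bp the sets were close, with 11.03% and 10.6% without H3K27ac against 9.78% and 9.52% with it. Broad H3K27me1 covered 7.77% of summits without H3K27ac and 5.03% and 5.21% of positions at 3000 bp. With H3K27ac the broad list covered 4.07% of summits, 2.83% and 2.66% at 500 bp and 4.17% and 4.0% at 3000 bp, so the summit was not above the far flanks. H3K27ac covered none of the summits without it, by choice, and 11.8% and 12.5% of positions at 3000 bp, against 13.3% and 13.5% around peaks with H3K27ac. Protein-coding genes covered 89.8% of summits without H3K27ac and 90.2% of those with it.

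**Figure D3:**
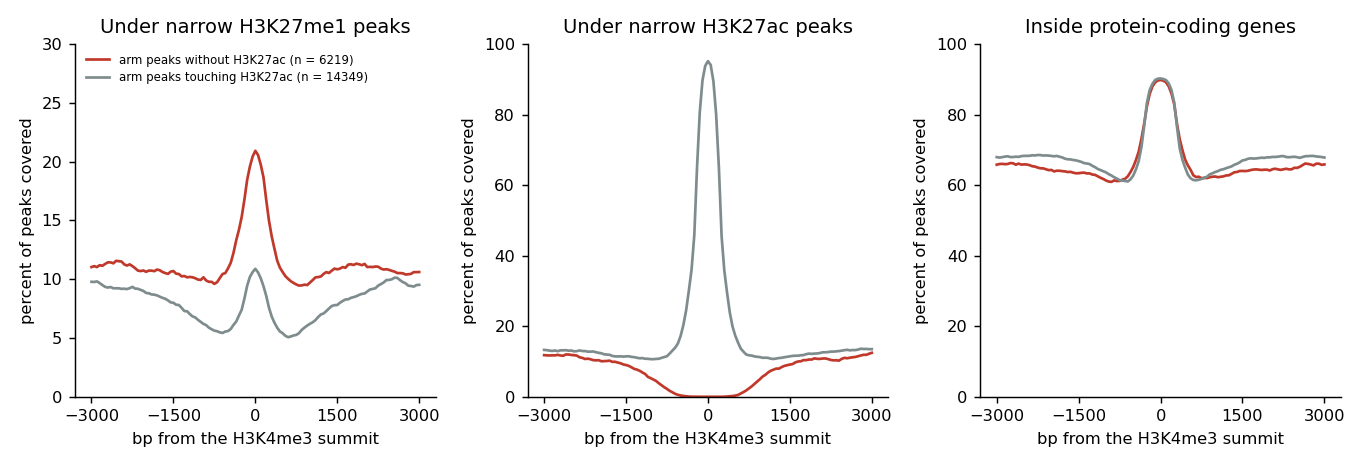
Percent of arm H3K4me3 peaks whose position at a given distance from the summit (−3000 to 3000 bp, not oriented by strand) lies under a narrow H3K27me1 peak (left), a narrow H3K27ac peak (middle) or a protein-coding gene (right), for peaks without H3K27ac (red) and with it (grey). At the summit H3K27me1 covers 20.9% of red and 10.9% of grey peaks; the H3K27ac panel shows what the choice fixed, and the gene panel reaches 89.8% and 90.2%.

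At the level of genes, H3K4me3 without any H3K27ac was found on 4807 of 27444 protein-coding genes, or 17.5%. A gene was counted when such peaks overlapped it by 150 bp or more and no H3K27ac peak shared a base with it. These genes were 23.3% of the 20642 genes with H3K4me3, which in turn were 75.2% of all. Another 915 genes (3.33%) lay under such a peak and had H3K27ac elsewhere on their span, so that 5722 genes lay under peaks without H3K27ac. H3K4me3 with H3K27ac and no such peak marked 13904 genes (50.7%), and 6802 (24.8%) had no H3K4me3. Genes without H3K27ac had a median length of 2187 bp, against 2289.5 bp for genes with both marks. Genes with H3K27ac elsewhere were longer, with a median of 3250 bp. Their share ran from 0.242% of H3K4me3 genes in the shortest of 5 length bins to 9.30% in the longest, while the share with no H3K27ac at all went the other way, from 25.3% (23.9 to 26.6%) to 20.8% (19.6 to 22.1%). A longer gene has more bases with which to touch an H3K27ac peak, and the part of this counting rule in both trends was not tested. Of the 4807 genes, 779 (16.2%) had H3K27ac within 500 bp outside their span.

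Genes under peaks without H3K27ac, whether or not H3K27ac lay elsewhere on the gene, carried narrow H3K27me1 more often than genes with H3K27ac and no such peak. It covered 150 bp or more of the gene in 32.1% (30.8 to 33.5%) of genes with H3K4me3 and no H3K27ac, against 17.7% (17.1 to 18.3%) of genes with both marks and 26.9% of all protein-coding genes. The 915 genes under such a peak with H3K27ac elsewhere on their span had it in 31.0% (28.1 to 34.1%), an interval that includes 32.1%. Genes with no H3K4me3 had the highest share, 41.7%. Under broad H3K27me1 the shares were 11.2% without H3K27ac and 10.1% with H3K27ac elsewhere, against 6.30% of genes with both marks and no such peak, and 8.79% of all genes. In these gene shares the H3K27me1 may lie anywhere on the gene. They were not split by H3K4me3 fold or by gene length.

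Most peaks belonged to a single gene. Of the 6219 peaks, 5358 had at least 150 bp on 1 protein-coding gene and 309 on 2 or more, while 552 had less on any gene, and 254 genes held 2 or more such peaks. The 923 peaks on genes with H3K27ac elsewhere had a median fold of 2.38, against 2.82 for the 4744 on genes with none. They had their summit in the gene interior in 40.6%, against 28.9%, and touched narrow H3K27me1 in 20.8%, against 27.4%. These genes are longer, as given above, and the part of gene length in these differences was not tested.

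Genes outside the protein-coding set were counted when such a peak shared at least 1 base with them and no H3K27ac peak did, so their shares are not on the scale of the 150 bp limit above. Of the genes touching H3K4me3, those in the class were 16 of 110 tRNA genes (14.5%, 8.55 to 22.5%), 10 of 74 miRNA genes (13.5%, 6.67 to 23.4%) and 23 of 206 snoRNA and snRNA genes (11.2%, 7.21 to 16.3%). Long non-coding RNA genes had 324 of 1386 (23.4%, 21.2 to 25.7%), antisense RNA genes 11 of 40 (27.5%, 14.6 to 43.9%) and pseudogenes and transposon genes 115 of 496 (23.2%, 19.5 to 27.2%). Both H3K4me3 and H3K27ac were found on 15 of the 110 tRNA genes, 51 of the 74 miRNA genes and 139 of the 206 snoRNA and snRNA genes. They were found on 845 long non-coding RNA genes, 22 antisense RNA genes and 298 pseudogenes and transposon genes. For tRNA genes a low share in the class thus did not mean that most had H3K27ac. Most tRNA genes touching H3K4me3 were in neither count, and whether the H3K4me3 peaks over them touched H3K27ac is not given here. Over all genes of these classes, 625, 326, 369, 3701, 79 and 4843 in the same order, the shares were 2.56%, 3.07%, 6.23%, 8.75%, 13.9% and 2.37%. Many overlap protein-coding genes, and outside these the counts in the class were 14, 7, 14, 131, 0 and 101. None of these differences was tested.

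The highest peaks without H3K27ac lay on genes of varied function. TRX3 (AT5G42980), an h-type thioredoxin gene, had the highest fold, 7.56 over 1004 bp at chr5:17242632-17243635, with H3K27ac 553 bp away. AT3G04640 followed with 7.37 at chr3:1261008-1261618. SYP21, a syntaxin of vacuolar trafficking, had 7.03 (chr5:5534604-5535283), and mtLPD2, a mitochondrial lipoamide dehydrogenase, had 6.66 (chr3:5891269-5892307). ATL43, of the RING-type ubiquitin ligases, had 6.5 and PMT5, a polyol and monosaccharide transporter, 6.44. KRP6, an inhibitor of cyclin-dependent kinases, had 6.35 over 2026 bp at chr3:6616353-6618378. The other 5 of the 12 highest were AT1G58235 (6.29), AT1G26300 (6.24), XW6 (6.18), AT1G49840 (6.15) and AT4G29590 (6.13). XW6 encodes a ribosomal protein S2 and has near-identical copies close by, between which reads may be split, so its value is uncertain. AT4G29590 alone of the 12 had H3K27ac elsewhere on its span. None of the 12 peaks touched broad or narrow H3K27me1, and 8 had their summit near a gene end. Among all peaks without H3K27ac in the highest of 4 fold bins, 7.95% touched narrow and 4.18% broad H3K27me1, and 67.8% lay near a gene end.

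Of the 8 widest peaks without H3K27ac, 4 touched broad or narrow H3K27me1, beside 28.0% of all 6219 and 51.7% of the 627 widest. The widest, 4297 bp at chr5:18448597-18452893 over AT5G45510 and AT5G45520, had a fold of 2.70 and 4135 bp under broad H3K27me1. BRL2 (AT2G01950), a receptor kinase gene related to the brassinosteroid receptor BRI1, lay under 3059 bp at a fold of 2.59, 2028 bp of it under narrow H3K27me1. AT5G56040 (3046 bp, fold 2.55) had 2497 bp under narrow H3K27me1, and the peak over AT1G29560 and AT1G29570 (2922 bp, fold 2.5) had 849 bp. Of the other 4, the peaks on the pseudogene AT3G10100 (3963 bp, fold 4.37), on AT1G50820 (3905 bp, fold 5.19) and on PRORP1, a protein-only RNase P gene, with AT2G32235 and AT2G32240 (3125 bp, fold 4.99) were high as well as wide, and the peak over AT3G58940 and AT3G58950 (3331 bp) had a fold of 2.86. None of these 4 touched H3K27me1.

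Gene lists by function were read against the 17.5% of all protein-coding genes and the 23.3% of genes with H3K4me3. Over 500 genes in 19 lists, 113 (22.6%) had H3K4me3 and no H3K27ac, with a median fold of 2.69 and a range of 1.37 to 5.32. In 75 of them the highest peak lay near a gene end and in 38 in the interior, 37 touched narrow H3K27me1, and in 36 the nearest H3K27ac was over 5000 bp away. Over all 4807 genes of the class, 1268 had that peak in the interior and 1289 (26.8%) touched narrow H3K27me1. Of all 6219 peaks without H3K27ac, 896 had none within 5000 bp. That set also holds peaks on genes with H3K27ac elsewhere, so it is not a like background for the 36. The median gap was 1078 bp for those and 2455.5 bp for peaks on genes with none. Over all genes of a list, the interval of the share included 17.5% except for photosynthesis and immunity. Over the list genes with H3K4me3, it included 23.3% except for photosynthesis, above it with 9 of 15 (60%, 32.3 to 83.7%), and for the male germline and DNA replication and repair, below it. Of the 113 genes, 13 had H3K27ac within 500 bp outside their span, beside 779 of the 4807 (16.2%). Those named below are MYB97, ASY1, SWN, DCL2, NRPE1, CPC, ETC2, BRI1, COP1, PHYD, C4H and KOR. The lists are given by their counts, and none was tested. The H3K27me1 counts of single lists rest on few genes and are given without intervals. They were not split by place, though narrow H3K27me1 touched 19.9% of all peaks without H3K27ac near a gene end and 39.8% in gene interiors.

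The counts moved with the calling limits. When H3K27ac counted only from a −log10 q of 5, the share of all genes was 26.6%, and the count became 9 of 23 for meiosis, 4 of 22 for DNA replication and repair, 5 of 24 for the pollen tube and vegetative cell, 11 of 32 for auxin, 15 of 36 for other hormones and 13 of 28 for transport. Over H3K4me3 peaks with a −log10 q of 20 or more, the share of all genes was 12.5%. There the count became 1 of 32 for flowering, 3 of 28 for meristem genes, 1 of 20 for seed and embryo, 4 of 30 for DNA methylation and silencing, 5 of 30 for immunity and 4 of 28 for transport. The other lists moved by at most 1.5 times under both limits.

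**Figure D4:**
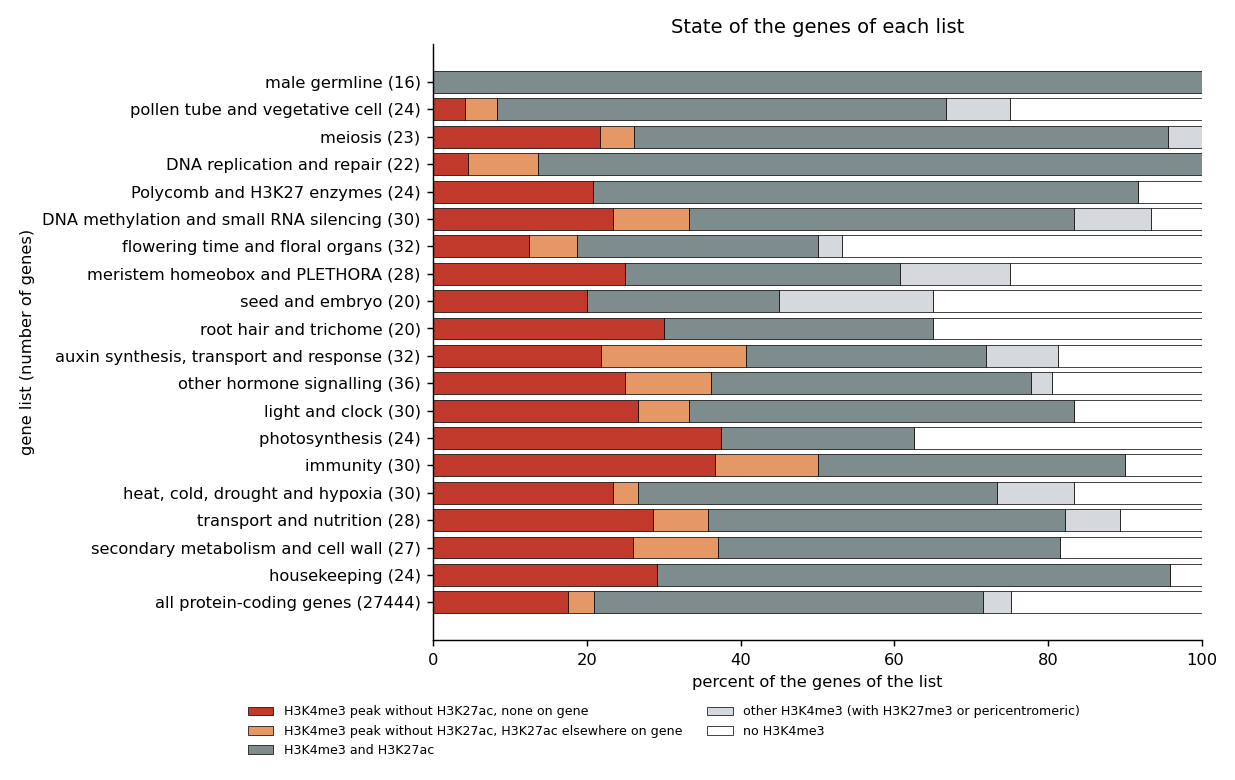
Percent of the genes of each functional list (number of genes in brackets) in 5 classes: H3K4me3 peak without H3K27ac and none on the gene (red), the same with H3K27ac elsewhere on the gene (orange), H3K4me3 with H3K27ac (dark grey), other H3K4me3 (light grey) and no H3K4me3 (white). The red share runs from 0 of 16 male germline genes to 9 of 24 photosynthesis genes (37.5%), beside 17.5% of all protein-coding genes, at the authors' calling limits.

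Male germline genes and most DNA replication and repair genes carried both marks, as did 67.4% of all genes with H3K4me3. These counts leave out genes under a peak without H3K27ac that had H3K27ac elsewhere on their span. None of the 16 male germline genes lay in the class without H3K27ac (interval up to 20.6%, under the 23.3% of genes with H3K4me3), also when H3K27ac counted only from a −log10 q of 5. All 16 carried H3K4me3 with H3K27ac. DNA replication and repair had 1 of 22 in the class, KU80 of double-strand break end joining (3.42). Both marks were carried by 19 (86.4%), and 2 more had H3K27ac elsewhere on the gene. With the −log10 q limit of 5 on H3K27ac the count in the class was 4 of 22. Pollen tube and vegetative cell genes had 1 of 24, the transcription factor MYB97 (2.69), with 14 carrying both marks and 6 no H3K4me3. That count was 5 of 24 with the limit of 5 and 0 when H3K27ac within 500 bp counted as touching.

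The meiosis list had 5 of 23 (21.7%), all with the peak near a gene end. ZYP1b of the synaptonemal complex had a fold of 5.09 (chr1:7866956-7867699). It has a near-identical neighbour, ZYP1a, so the value is uncertain. SPO11-2, which takes part in making the DNA breaks that start recombination, had 4.09 at chr1:23744718-23745392 with the nearest H3K27ac 7524 bp away. The recombinase DMC1 had 3.59 and touched narrow H3K27me1, the cyclin-like SDS had 3.48 and the axis protein ASY1 had 2.29. Both marks were carried by 16 of the 23, and 1 more had H3K27ac elsewhere on the gene.

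Chromatin regulators were split between the classes. Of 24 Polycomb and H3K27 enzyme genes, 5 (20.8%) had H3K4me3 without H3K27ac and 17 had both marks. The 5 were JMJ30, a histone demethylase (5.03, chr3:7275680-7276487), LHP1, which binds H3K27me3 (4.46, chr5:5829042-5829719), RING1A of the Polycomb ring finger proteins (3.76), SWN, a catalytic subunit of Polycomb repressive complex 2 (2.67), and EMF1 (2.54). Of 30 genes of DNA methylation and small RNA silencing, 7 (23.3%) were without H3K27ac. They include AGO2 (4.54), the microRNA effector AGO1 (3.86), the chromomethylase CMT2 (3.68, over 1409 bp), DCL2 (2.54), the RNA polymerase V subunit NRPE1 (2.28) and the de novo methyltransferase DRM2 (1.99). None of the 7 touched H3K27me1, beside 26.8% over all genes of the class for the narrow list.

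Developmental regulators in the class mostly had folds under its median of 2.88. Over H3K4me3 peaks with a −log10 q of 20 or more, 1 of 32 flowering genes (3.12%), 3 of 28 meristem genes (10.7%) and 1 of 20 seed genes (5%) were in the class, beside 12.5% of all genes. Flowering and floral organ genes had 4 of 32 (12.5%) without H3K27ac: MAF4 (2.38), SEP3 (1.99), AG (1.97) and SOC1 (1.86), and 15 of 32 had no H3K4me3. AG, the floral organ identity gene, touched both broad and narrow H3K27me1. Meristem homeobox and PLETHORA genes had 7 of 28 (25%). PLT3, of root stem cells, had 3.56 over 1850 bp and touched narrow H3K27me1, WOX13 had 2.79, KNAT2 2.66, the root niche gene WOX5 2.31 and KNAT6 and CUC2 1.84 each. Seed and embryo genes had 4 of 20, the regulators BZIP67 (3.05) and ABI3 (2.1) and the storage protein genes CRU2 (1.92) and CRU3 (1.68), which are paralogs.

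Root hair and trichome genes had 6 of 20 (30%). TTG1, a WD40 protein of epidermal patterning, had the highest fold of all 113 list genes, 5.32 at chr5:8371912-8372845, touched broad and narrow H3K27me1, and had its nearest H3K27ac 12000 bp away. GL3, its bHLH partner, had 3.24, ETC2 2.96, CPC 2.66, SIM 2.62 and TTG2 1.62.

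The shares of both hormone lists had intervals that included the 17.5% of all genes. The auxin list had 7 of 32 (21.9%, 9.28 to 39.97%) without H3K27ac and 6 more with H3K27ac elsewhere on the gene. ARF6, an auxin response factor, had 4.77 at chr1:10690159-10690898 with the nearest H3K27ac 12056 bp away. The YUCCA flavin monooxygenases, which make auxin, had 4 of the 7, YUC8 (3.95), YUC2 (3.63), YUC3 (2.97) and YUC11 (2.32), and ARF7 had 2.48. Other hormone signalling had 9 of 36 (25%, 12.1 to 42.2%). RGL3 (4.99) and RGA (3.64) are DELLA repressors of gibberellin response, PYL2 (4.93) is an abscisic acid receptor, ARR2 (4.32) a cytokinin response regulator, BRI1 (3.41, over 2212 bp) the brassinosteroid receptor and MYC2 (3.17) a jasmonate response factor. Narrow H3K27me1 touched the peaks of 4 of 7 auxin genes and 4 of 9 other hormone genes, beside 26.8% over all genes of the class.

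Light and clock genes had 8 of 30 (26.7%), and none of the 8 touched narrow H3K27me1, beside 26.8% over all genes of the class. PIF1, a repressor of light-dependent germination, had 5.09 (chr2:8705396-8706423), the red light receptor PHYB 4.83 (chr2:8139797-8140802), the clock gene LUX 3.51, the ubiquitin ligase COP1 3.32, PHYD 3.26 and the blue light receptor PHOT1 2.84. PIF1 and PHYD touched broad H3K27me1.

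Photosynthesis genes had 9 of 24 (37.5%, 18.8 to 59.4%) in the class, and another 9 had no H3K4me3. The remaining 6, LHCA1, LHCA3, RBCS2B, RBCS3B, PSBO1 and PSBO2, carried both marks (named after their values were seen). PSAD-1, a photosystem I subunit, had 4.86 over 1630 bp at chr4:1228333-1229962. The light-harvesting genes LHCB1.3 (3.27), LHCB2.1 (2.93), LHCB4.1 (2.86) and LHCA4 (2.58) and the photosystem I gene PSAF (2.63) were lower, and RCA, a leaf marker, had 2.04. LHCB1 and LHCB2 genes have near-identical copies, so their values are uncertain. The nearest H3K27ac to the LHCB2.1 peak lay 34918 bp away. Over H3K4me3 peaks with a −log10 q of 20 or more, the photosynthesis count was 6 of 24 (25%), beside 12.5% of all genes and 29.2% of the housekeeping list. With the −log10 q limit of 5 on H3K27ac it was 10 of 24 (41.7%), under immunity (46.7%) and transport (46.4%), so the order of the lists depends on these limits.

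Immunity genes had 11 of 30 (36.7%, 19.9 to 56.1%) without H3K27ac and 4 more with H3K27ac elsewhere. The resistance gene RPP4 had 4.07 (chr4:9495266-9495916). It belongs to a cluster of similar genes, so its value is uncertain. The other 5 named were lower: SAG101 (2.74), the oxidase gene RBOHD (2.58), PAD3 of camalexin synthesis (2.43), the flagellin receptor FLS2 (2.37, over 1503 bp) and SOBIR1 (2.18). Narrow H3K27me1 touched 6 of the 11, beside 26.8% over all genes of the class. Over H3K4me3 peaks with a −log10 q of 20 or more the immunity count was 5 of 30 (16.7%), beside 12.5% of all genes.

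The lists of stress, transport and metabolism had intervals that included 17.5%. Heat, cold, drought and hypoxia genes had 7 of 30 (23.3%): the sodium transporter SOS1 (4.29), the cold regulator CBF1 (3.42), the heat shock factors HSFA2 (3.31) and HSFA1B (2.86), the hypoxia regulator HRE1 (3.1) and DREB2A (2.91) are the 6 highest. Transport and nutrition had 8 of 28 (28.6%). The ammonium transporter AMT1;1 had 4.69 (chr4:7858103-7859359, nearest H3K27ac 14476 bp away), the sugar transporter STP1 4.27, PHO1 of phosphate loading 3.86 over 2797 bp, the iron genes IRT1 2.45 and FIT 2.25 and the phosphate transporter PHT1;1 2.23. Secondary metabolism and cell wall had 7 of 27 (25.9%). CHS (3.50), C4H (3.48), F3H (2.09) and BAN (2.49) act in phenylpropanoid and flavonoid synthesis, and KOR (2.92) and CESA7 (2.36) in cellulose synthesis. Narrow H3K27me1 touched 4 of the 7, beside the same 26.8%.

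Housekeeping genes were in the class as well, with 7 of 24 (29.2%, 12.6 to 51.1%) and 16 carrying both marks. The beta-tubulin gene TUB2 had 4.49 (it has a near-identical copy, so this is uncertain), NRPB1, the largest subunit of RNA polymerase II, 3.47 (chr4:16967459-16968085), the chaperone HSC70-1 3.39, TIP41 3.31, the actin gene ACT7 2.62 and the cell cycle kinase CDKA;1 2.55. All 7 peaks lay near a gene end, and none touched H3K27me1. The narrow list touched 26.8% over all genes of the class, and 19.9% of all peaks without H3K27ac near a gene end. The count stayed at 7 of 24 over H3K4me3 peaks with a −log10 q of 20 or more.

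**Figure D5:**
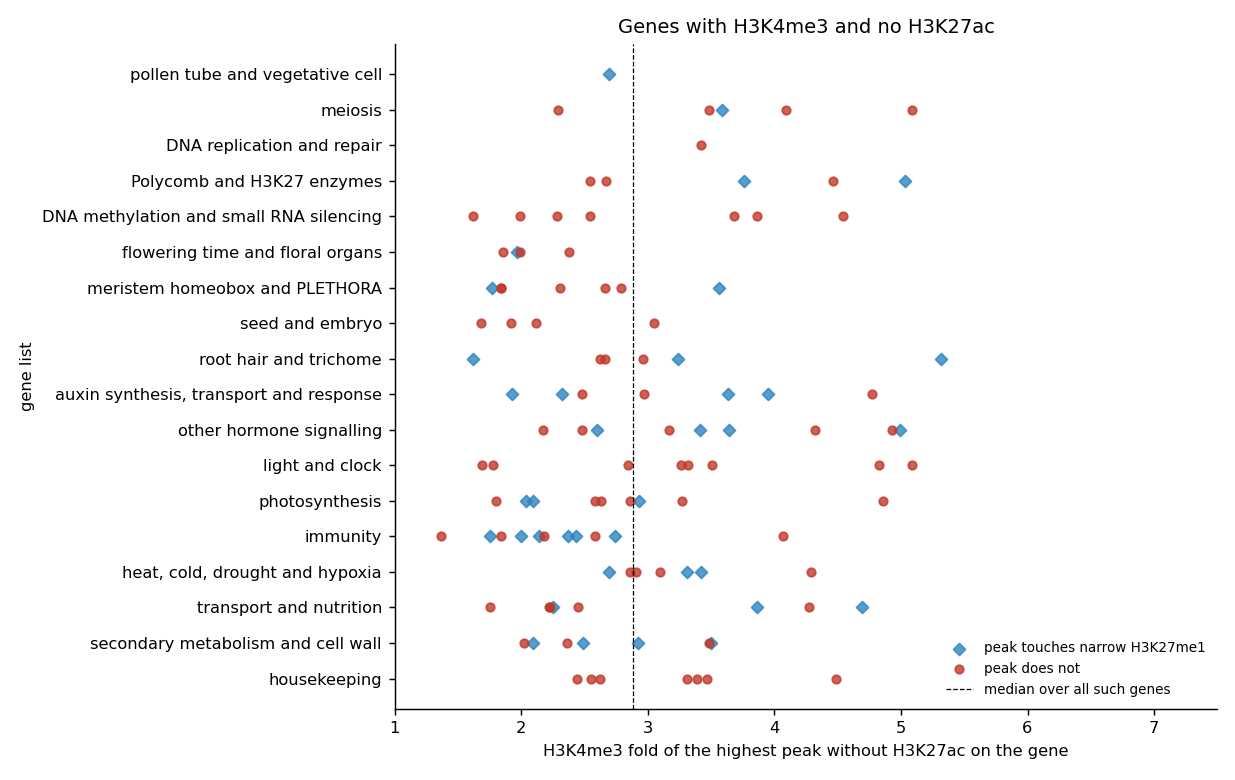
H3K4me3 fold of the highest peak without H3K27ac on each of the 113 list genes with no H3K27ac, by list; blue diamonds touch narrow H3K27me1 and red circles do not, and the dashed line is the median over all 4807 such genes (2.88). TTG1 in the root hair and trichome list is the highest point at 5.32. No point is blue for housekeeping (7), silencing (7), light and clock (8), seed and embryo (4) or DNA replication and repair (1). Over all 4807 such genes, 26.8% touched narrow H3K27me1.

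Gene families with at least 20 genes matched by symbol were read against the same 17.5% of all genes and 23.3% of genes with H3K4me3. Cytochrome P450 genes had 49 of 234 (20.9%) with H3K4me3 and no H3K27ac, NAC transcription factors 25 of 105 (23.8%), WRKY factors 14 of 72 (19.4%) and MYB factors 18 of 125 (14.4%). Ethylene response factors had 9 of 27 (33.3%, 16.5 to 54.0%), F-box genes 9 of 31 (29.0%, 14.2 to 48.0%) and ribosomal protein genes 10 of 68 (14.7%). Defensin-like and cysteine-rich peptide genes had 2 of 85 (2.35%, 0.286 to 8.24%), and 77 of these 85 had no H3K4me3. The interval over all genes of a family included 17.5% except for the defensin-like genes. Over family genes with H3K4me3, the share ran from 16.9% of ribosomal protein genes to 37.5% of ethylene response factors, with MYB factors at 28.6% and defensin-like genes at 25% (2 of 8), and every interval included 23.3%. Members of these families resemble each other, so reads may be split between copies.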

How the data were processed

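Narrow and broad peak lists deposited by the authors were used for 4 histone marks. Per the submitters' processing notes, the build was TAIR10 and the tools included MACS2 2.1.0, Bowtie2 2.1.0, deepTools 2.5.0.1, SAMtools 1.3, Trim Galore 0.4.1, bedtools and Picard. Their settings are not given in the sources used. The deposited fold of each peak is a ratio of signal over the local background that the authors' peak caller expected. The deposited significance of each peak is the authors' −log10 q. Both are the authors' values, with no depth or replicate spread behind them, and the fold and q of the broad lists were not used.

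Peak starts were turned to counts from 1, and overlaps were computed with Python 3.11.15, numpy 2.4.6, pandas 2.3.3 and scipy 1.17.1 and checked against a direct count on simulated intervals. Figures used matplotlib 3.10.9. The pericentromeres left out were chromosome 1 at 13 to 17 Mb, 2 at 2 to 7, 3 at 11 to 16, 4 at 3 to 6 and 5 at 10 to 14.5 Mb. Genes came from a RefSeq table of TAIR10.1 without strand; when summits were moved by up to 5000 bp, the fit to gene ends was best at an offset of 0 in all 59 segments of 2 Mb, and gene coordinates are not given. Each summit was given to 1 class, with protein-coding gene ends taking precedence over interiors, these over pseudogenes and transposon genes, and these over RNA genes. List genes were matched by symbol (482) or gene identifier (19), and 1 repeat was dropped. Promoter motifs were not analysed here.

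The members and lists were chosen with earlier results of these data known. Genes were named when under the 12 highest or 8 widest peaks without H3K27ac, or when among the 6 highest of a list; cell type markers were named as well. Alternatives were a stricter H3K4me3 list (−log10 q of 20), a stricter H3K27ac list (5), H3K27ac within 500 bp or over 150 bp, the narrow H3K27me3 or H3K27me1 list, pericentromeres kept, 250 bp around gene ends, and 1 or 300 bp of a gene.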

Additional observations from a re-analysis of the deposited data

Results flagged for a closer look

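A broad H3K27ac list that the choice of peaks did not use (163 peaks) was touched by 37 peaks without narrow H3K27ac (0.595%), against 0.328% of peaks with narrow H3K27ac and 0.424% of all H3K4me3 peaks. Of the 37, 54.1% had the summit near a gene end and 40.5% in a gene interior, beside 64.5% and 28.1% of all 6219, and 40.5% (24.8 to 57.9%) touched narrow H3K27me1, beside 25.1%. Their median H3K4me3 fold was 2.51. None of these differences was tested. For these 37 peaks the absence of H3K27ac holds in the narrow list only. The broad list held 163 peaks, against 19545 in the narrow list, and missed nearly all peaks with narrow H3K27ac. Whether these 37 are acetylated therefore cannot be read from it.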

How the results depend on the processing

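Of 36 recomputed values, 31 stayed close to the reported value (counts within 1.5 times, shares within the counting interval), and 5 did not. Over H3K4me3 peaks with a −log10 q of 20 or more, 3951 peaks had no H3K27ac and 70.4% of them had the summit near a gene end. With 250 bp in place of 500 bp around gene ends that share was 19.6%. The narrow H3K27me1 list touched 25.1% of the peaks without H3K27ac, against the 8.89% of the broad list. When only H3K27ac peaks with a −log10 q of 5 or more counted, 7306 genes had H3K4me3 without H3K27ac and 9043 peaks were without it. Under the 6 alternatives for the choice of peaks, the share touching narrow H3K27me1 was 23.1 to 25.8% without H3K27ac against 12.7 to 15.2% with it, and the share in gene interiors was 25.03 to 28.5% against 17.5 to 20.2%, so both differences kept their direction under these. With 250 bp around gene ends the second did not, at 71.5% without against 72.5% with H3K27ac in gene interiors (added after seeing the data). None of these alternatives compared peaks of like H3K4me3 fold. Within the 4 fold bins the intervals overlapped in bins 2 and 4 for narrow H3K27me1 and in bins 1 and 2 for gene interiors. No paired analysis was possible because each list covers a mark as a whole, with no values per sample, and for the same reason no replicate could be left out. Weak acetylation under the calling limit, single copies of near-identical genes and amounts of a mark cannot be read from these lists.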
